A study of Mus musculus with 28 samples.

Results

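The unfolded protein response and chaperone genes of the endoplasmic reticulum (ER) were described in mouse liver and liver tumors. The group was a fixed list of 31 genes, and all 31 were found by symbol among the 22187 genes of the table. It held 15 ATF6/XBP1 chaperone genes, 7 genes of ER-associated degradation, 4 genes for the stress sensors and XBP1, and 5 PERK/ATF4 genes (Atf4, Ddit3, Trib3, Ppp1r15a and Chac1). Bulk RNA sequencing covered 28 libraries in 8 groups, made from C57BL/6 mice that all received the liver carcinogen diethylnitrosamine (DEN, 25 mg/kg) at 2 weeks of age and were then fed for 18 weeks. Mice labelled IL17RA_floxflox (FF) carried loxP-flanked Il17ra, the gene of the interleukin-17 receptor A, and mice labelled AlbCre_IL17RA_floxflox (dHEP) carried in addition a Cre recombinase driven by the albumin promoter. That promoter is active in hepatocytes, so the other cells of a dHEP liver keep the receptor. The diet was ethanol (labelled as a high-fat diet with alcohol for the samples and as liquid ethanol feeding for the series, called the alcohol diet here) or chow. Tumor and non-tumor liver were sequenced for each genotype and diet, with 4 libraries in each alcohol group and 3 in each chow group. Values per library are listed below in rising order of the animal number in the library name: FF-157, FF-158 and FF-159 (chow, non-tumor), FF-167, FF-168 and FF-169 (chow, tumor), FF-503 and FF-523, then FF-581 and FF-595 (alcohol, both tissues), dHEP-155, dHEP-164 and dHEP-165 (chow, both tissues), and dHEP-518 and dHEP-520, then dHEP-549 and dHEP-550 (alcohol, both tissues). Levels are in CPM, the reads of a gene scaled to 1000000 assigned reads of its library.

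As background, the unfolded protein response is the cell's answer to a load of unfolded protein in the ER, and hepatocytes, which secrete most plasma proteins, carry a large ER. ATF6 is cut to a transcription factor, and IRE1 (gene Ern1) splices Xbp1 mRNA so that it encodes an active factor; both factors act on chaperone and degradation genes. PERK (gene Eif2ak3) phosphorylates the translation factor eIF2, which lowers general translation and favours translation of ATF4; ATF4 acts on Ddit3 (CHOP), Trib3, Ppp1r15a (the phosphatase subunit GADD34) and Chac1 (a glutathione-degrading enzyme). Because splicing, cleavage and phosphorylation are not read by gene counts, the values below are mRNA levels and not sensor activity.

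The ER stress response element (ERSE), which ATF6 binds together with NF-Y, is written CCAAT, then 9 bases of any kind, then CCACG, and it was searched on both strands from 250 bases before to 50 bases after each RefSeq gene start (GRCm38.p6). Promoters were matched for 27 of the 31 genes; Hyou1, Manf, Derl1 and Atf6 had no entry in that table. The element was found in 9 of the 27, against 0.137% of 27025 genes. The matches in these 9 are listed because they are letters that 7 chaperone and 2 degradation genes shared and that no PERK/ATF4 gene held in this window. Each is written 5′ to 3′ on the gene's strand, with the fixed letters of the element in capitals; matches that start with CGTGG lie on the opposite strand.
Hspa5, chr2:34772025-34772043: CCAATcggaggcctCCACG
Hsp90b1, chr10:86705638-86705656: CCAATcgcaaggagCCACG
Hsp90b1, chr10:86705533-86705551: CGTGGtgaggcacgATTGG
Calr, chr8:84847075-84847093: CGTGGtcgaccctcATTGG
Canx, chr11:50325800-50325818: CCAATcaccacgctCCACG
Pdia6, chr12:17266491-17266509: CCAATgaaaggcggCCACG
Dnajc3, chr14:118937827-118937845: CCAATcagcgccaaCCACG
Creld2, chr15:88819520-88819538: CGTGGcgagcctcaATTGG
Syvn1, chr19:6046532-6046550: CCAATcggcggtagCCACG
Derl3, chr10:75893242-75893260: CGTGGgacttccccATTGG

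Creld2 is printed with its 250 bases before the start, because its level varied most widely among the chaperone genes in non-tumor liver; its ERSE, in capitals, begins 126 bases before the start (chr15:88819396-88819645, plus strand).
Creld2: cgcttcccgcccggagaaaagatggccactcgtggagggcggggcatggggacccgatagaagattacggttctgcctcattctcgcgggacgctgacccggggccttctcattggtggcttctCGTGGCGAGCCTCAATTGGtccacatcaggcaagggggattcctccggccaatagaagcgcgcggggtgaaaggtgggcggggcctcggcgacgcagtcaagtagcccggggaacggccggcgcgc
The shorter element ERSE-II (ATTGG, 1 base of any kind, CCACG; overlapping no ERSE match) was found in Dnajb11 and Herpud1, against 0.0444% of genes. The C/EBP-ATF response element that ATF4 binds (CARE, TTGCATCA) was found in Herpud1 and Chac1, against 1.03% of genes, and the XBP1 element UPRE (TGACGTGG) in none of the 27, against 0.714%. Herpud1, a degradation gene of the list, was the only listed gene with a match to both ERSE-II and CARE. The stretch that holds both is shown with the matches in capitals (chr8:94386307-94386397, plus strand).
Herpud1: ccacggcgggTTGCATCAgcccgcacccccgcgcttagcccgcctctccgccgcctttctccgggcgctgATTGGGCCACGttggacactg
These matches describe letters in a window and say nothing of binding in these livers.

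The libraries held about 9.57 M to 17.82 M reads (M, reads in units of 1000000), estimated from the steps of low values. The targeted gene Il17ra was at 8.34 to 12.99 CPM in the 7 dHEP non-tumor libraries and at 14.7 to 30.99 in the 7 FF ones; in tumors the ranges overlapped (8.38 to 29.4 against 20.8 to 33.9), because the tumors labelled dHEP-155 (29.4 CPM) and dHEP-520 (28.2) lay inside the FF range. In tumors, dHEP is therefore used as the label of a library throughout. The tumors dHEP-549 and dHEP-550 held little of the tumor marker Gpc3 (0.473 and 1.66 CPM, against 16.1 to 482 in the other tumors), and among the non-tumor libraries, FF-581 and FF-523 held more Afp than the others (159.2 and 212.7 CPM, against 1.41 to 8.82). The other marker was less clear. Afp was at 5.47 and 50.6 CPM in the dHEP-549 and dHEP-550 tumors, against 33.4 to 1448 in the other tumors. Gpc3 was at 17.6 and 25.8 CPM in non-tumor FF-581 and FF-523, against 0.444 to 15.6 in the other non-tumor libraries. Most of the main counts that include these 6 libraries are also given without them, as alternatives chosen after seeing the data. Among the listed genes, Hsp90b1 shares 10.3% of its exon bases with antisense genes, Manf 8.9%, Eif2ak3 8.0% and Ddit3 4.7%; the strand used in counting is not given in the sources used here.

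The 31 genes together took 0.572% to 1.08% of the CPM of a non-tumor library and 0.785% to 1.43% of that of a tumor. Per kilobase of exon, P4hb (a protein disulfide isomerase) was the most abundant, at 495 ± 51.1 CPM per kb in non-tumor liver and 780 ± 138 in tumors (SD, n = 14 each). In non-tumor liver Herpud1 (241 ± 75.5), the lectin chaperone Calr (237 ± 56.7), Hsp90b1 (the ER HSP90, 203 ± 45.6) and Hspa5 (the ER HSP70 called BiP, 189 ± 83.3 CPM per kb) followed within a spread of each other. In tumors Hspa5 took the second place with 337 ± 129 CPM per kb. The genes of the PERK/ATF4 side were low: apart from Atf4 (30.4 ± 4.71 CPM per kb), they lay between 2.98 (Trib3) and 4.70 (Ppp1r15a) in non-tumor liver. Derl3, at 2.28 ± 3.56 CPM per kb, was the least abundant gene of non-tumor liver, and Chac1, at 2.61 ± 1.85, that of tumors. Trib3 moved from rank 30 of 31 in non-tumor liver to rank 22 in tumors.

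Tumor was compared with non-tumor liver in each of the 4 combinations of genotype and diet, fitted with limma on log2(CPM + 1); a gene was called at a Benjamini-Hochberg adjusted p under 0.05 over all 13503 genes tested. Tumors had higher levels of 14 of the 31 genes in FF mice on alcohol, of 7 in FF mice on chow, of 9 in dHEP mice on alcohol and of 12 in dHEP mice on chow, and no listed gene was called lower. The share of all tested genes called higher was 13.9%, 21.2%, 12.9% and 17.2% in the same order, the share called lower 10.6%, 9.55%, 7.54% and 10.7%, and the share called in either direction 24.6%, 30.8%, 20.4% and 27.9%. The median log2 difference of the 31 was 0.59, 0.37, 0.47 and 0.54, against 0.05, 0.16, 0.09 and 0.14 over all tested genes. All tumor libraries lay above all non-tumor libraries of the combination for 9, 13, 9 and 12 of the 31, in the same order. The same held for 15.9%, 30.7%, 13.8% and 23.5% of all tested genes. Such separation was thus common, most of all in FF mice on chow. The genes called in all 4 comparisons were Pdia6, P4hb, Derl1, Eif2ak3 and Atf4; Hspa5 and Trib3 were called in 3. The animal number was shared by tumor and non-tumor libraries in 3 of the combinations. Fits with the animal as a replicate block, here and below, used the libraries of the compared groups only, and the main fits all 28. Calls lost or gained with the block may therefore also come from the libraries left out. With the block the count was 15 in place of 14 (FF alcohol), 3 in place of 9 (dHEP alcohol) and 8 in place of 12 (dHEP chow). The 8 include Herpud1 as a gene called lower. Without non-tumor FF-581 and FF-523 the FF alcohol count was 6, and without the tumors dHEP-549 and dHEP-550 the dHEP alcohol count was 12. Without the tumors labelled dHEP-155 and dHEP-520 the counts were 6 (dHEP alcohol) and 10 (dHEP chow), each with Chac1 as a gene called lower. Leaving out a single library gave 8 or 9 for FF alcohol (non-tumor FF-503, FF-523 or FF-581, or the FF-503, FF-523 or FF-595 tumor), 4 for FF chow (non-tumor FF-157), and 4 or 5 for dHEP alcohol (non-tumor dHEP-518 or dHEP-520, or the dHEP-518 tumor). Of the 8 such fits for FF alcohol, Pdia6, P4hb, Derl1, Eif2ak3 and Trib3 were called in 8, Dnajb9 and Atf4 in 7, Hspa5 in 6, Ern1 and Ddit3 in 4, Hsp90b1 and Sdf2l1 in 3, and Pdia4 and Manf in 2. Of the 6 for FF chow, Derl1, P4hb and Trib3 were called in 6, Eif2ak3 in 5, Atf4 in 3, and Pdia6 and Xbp1 in 2. Of the 8 for dHEP alcohol, Pdia6, P4hb, Derl1 and Eif2ak3 were called in 8, Hspa5, Manf and Atf4 in 4, and Hsp90b1 and Xbp1 in 2. Outside these genes, Trib3 was called higher without the dHEP-549 tumor and Chac1 lower without the dHEP-520 tumor. Of the 6 for dHEP chow, Pdia6, Derl1, Ern1, Eif2ak3, Atf4, Ddit3 and Trib3 were called in 6, P4hb in 5, Dnajb9, Pdia3 and Syvn1 in 3, and Hspa5 in 2. These tallies cover genes called with all libraries. The FF alcohol count ranged from 8 to 19, so genes outside its 14 were also called in some fits. Here and below, called counts from the block fits and from fits without some libraries have no share of all genes beside them. A change in such a count may also be a change over all genes. In bulk tissue, a change in the share of a cell type and a change in RNA per cell cannot be told apart, and the p-values measure the spread between these libraries.

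Among chaperones, 8 of 15 rose in FF tumors on alcohol (53.3%, against 13.9% of all tested genes), 2 in FF tumors on chow (13.3% against 21.2%), and 5 in dHEP tumors on either diet (33.3% against 12.9% on alcohol and 17.2% on chow). The FF chow count was thus below the share over all genes. Without non-tumor FF-581 and FF-523 the FF alcohol count was 3 (Dnajb9, P4hb and Pdia6). In dHEP tumors on alcohol it was 6 without dHEP-549 and dHEP-550 and 3 without dHEP-155 and dHEP-520. With the animal block, no chaperone was called in dHEP mice on alcohol, and Pdia6 and Dnajb9 were called in dHEP mice on chow. In FF mice on alcohol, Pdia4 was lost and Pdia3 gained. Pdia6, a protein disulfide isomerase, was at 237, 259 and 245 CPM in FF chow non-tumor liver, 282, 347 and 267 in dHEP chow, 209, 271, 257 and 343 in FF alcohol, and 164.4, 163, 194 and 224 in dHEP alcohol. In tumors it was at 347, 420.4 and 478 (FF chow), 560.1, 729 and 433 (dHEP chow), 785, 669, 645 and 602 (FF alcohol), and 587, 414, 301 and 267 CPM (dHEP alcohol). Every tumor library lay above every non-tumor library of its own combination. The log2 difference was 1.33 ± 0.20 (SE; limma, adjusted p = 5.3e-05) in FF mice on alcohol, 0.74 ± 0.24 (0.0205) in FF mice on chow, 1.01 ± 0.20 (0.00125) in dHEP mice on alcohol and 0.92 ± 0.24 (0.00562) in dHEP mice on chow. With the animal block the dHEP alcohol value had an adjusted p of 0.0538 in limma.

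Hspa5, which binds unfolded chains in the ER and holds the sensors inactive, was at 574, 731 and 726 CPM in FF chow non-tumor liver, 971, 1387 and 795 in dHEP chow, 749.8, 712, 631 and 1708 in FF alcohol, and 476, 376, 645 and 722 in dHEP alcohol. In tumors it was at 1085, 1065 and 949 (FF chow), 1403, 1847 and 2542 (dHEP chow), 2207, 1779, 1060 and 1991 (FF alcohol), and 1178, 1078, 989.7 and 806 CPM (dHEP alcohol). Tumor and non-tumor values overlapped in FF mice on alcohol, through the non-tumor library FF-595, and in no other combination. The log2 difference was 0.96 ± 0.28 (limma, adjusted p = 0.0153) in FF mice on alcohol, 0.90 ± 0.28 (0.0269) in dHEP mice on alcohol and 0.87 ± 0.33 (0.0497) in dHEP mice on chow, and it was 0.61 (0.162) in FF mice on chow. With the animal block, the 2 dHEP values were no longer called (limma, adjusted p = 0.0698 on alcohol and 0.132 on chow).

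P4hb rose in all 4 combinations. Non-tumor liver had 1325, 1527 and 1373 CPM (FF chow), 1480, 1489 and 1470 (dHEP chow), 1339, 1743, 1552 and 1421 (FF alcohol), and 1224, 1209, 1242 and 1447 (dHEP alcohol). Tumors had 2685, 2290 and 1928, then 2691, 2253 and 1790, then 2796, 2782, 2384 and 2235, and 2093, 1660, 1771 and 1876 CPM in the same order. The tissues did not overlap within any combination, and the log2 difference was 0.70 ± 0.18 (FF chow), 0.58 ± 0.18 (dHEP chow), 0.75 ± 0.15 (FF alcohol) and 0.53 ± 0.15 (dHEP alcohol; limma, largest adjusted p = 0.0158). With the block the call was lost in both dHEP combinations (limma, adjusted p = 0.241 on chow and 0.148 on alcohol).

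Dnajb9 (ERdj4, a co-chaperone of BiP and a gene that XBP1 acts on) rose in FF mice on alcohol, from 42.0, 53.7, 49.4 and 58.0 to 75.0, 87.9, 78.6 and 130.4 CPM (0.83 ± 0.24; limma, adjusted p = 0.0125), and in dHEP mice on chow, from 42.6, 85.8 and 42.9 to 94.6, 114.9 and 95.3 (0.89 ± 0.28; 0.018). Its tumor values lay above all non-tumor values in these 2 combinations. In dHEP mice on alcohol the values overlapped, at 36.5, 35.3, 71.5 and 50.2 CPM in non-tumor liver and 50.6, 42.7, 78.5 and 44.8 in tumors (0.17), and in FF mice on chow they touched, at 44.7, 33.3 and 46.9 against 46.6, 57.3 and 59.2 (0.38). Hsp90b1 rose in both genotypes on alcohol, from 790.3, 865, 688 and 1199 to 1608, 1466, 901 and 1549 CPM in FF mice (0.64 ± 0.20) and from 631, 562, 648 and 705 to 950.4, 1169, 771 and 1015 in dHEP mice (0.60 ± 0.20). The FF values overlapped and the dHEP values did not. Manf, a secreted ER protein, rose in the same combinations, from 65.5, 67.5, 55.4 and 153 to 179, 145, 93.2 and 170.3 CPM in FF mice (0.85 ± 0.30) and from 34.9, 26.7, 57.9 and 61.0 to 97.2, 77.4, 100.5 and 63.4 in dHEP mice (0.95 ± 0.30). For Manf too the overlap in FF mice came from the non-tumor library FF-595. With the block the dHEP calls of Hsp90b1 and Manf were lost (limma, adjusted p = 0.0941 and 0.0546).

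Pdia4 rose in FF mice on alcohol, from 251, 305, 269 and 450 to 599, 512, 349.8 and 442 CPM with overlap (0.59 ± 0.21; limma, adjusted p = 0.0424, and 0.0566 with the block). Sdf2l1, a partner of BiP co-chaperones, rose in the same mice, from 16.5, 18.6, 15.8 and 46.1 to 73.2, 49.8, 34.5 and 42.3 CPM (1.10 ± 0.38; limma, adjusted p = 0.0356), and only FF-595 reached the tumor range. Pdia3, which works with calreticulin and calnexin on glycoproteins, rose in dHEP mice on chow, from 238, 282 and 233 to 505, 318 and 337 CPM without overlap (0.59 ± 0.18; limma, adjusted p = 0.0164, and 0.15 with the block); with the block it was also called in FF mice on alcohol (0.0444). Calr, Canx, Dnajb11, Dnajc3, Hyou1 and Creld2 were called in none of the 4. For Hyou1, an ER HSP110, FF alcohol non-tumor liver had 297, 264, 224 and 648 CPM and tumors 524, 402, 283 and 507, and dHEP alcohol non-tumor liver had 186, 166, 264 and 284 and tumors 254, 247, 320 and 222. The tissues overlapped in both.

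Of the 7 degradation genes, Derl1 (a channel component for proteins leaving the ER) rose in all 4 combinations and in every fit that left out 1 library. It was at 108 to 142 CPM in the 14 non-tumor libraries and at 164.1 to 350.2 in the 14 tumors, so the tissues did not overlap. The log2 differences were 0.83 ± 0.15, 0.79 ± 0.17, 0.56 ± 0.15 and 0.97 ± 0.17 (FF alcohol, FF chow, dHEP alcohol, dHEP chow; limma, largest adjusted p = 0.00909). Syvn1 (HRD1, the ubiquitin ligase of the pathway) rose in dHEP mice on chow (0.98 ± 0.35; limma, adjusted p = 0.0377, and 0.123 with the block), where tumors had 106.4, 49.4 and 51.7 CPM and non-tumor liver 24.7, 53.0 and 25.9. Herpud1 had differences of -0.06, -0.72, -0.39 and -0.83 in the order of the Derl1 values and was called in none, although with the animal block the last of these was called (limma, adjusted p = 0.0458). Derl3 in FF chow was at 1.78, 2.99 and 1.303 CPM in non-tumor liver and 10.3, 5.67 and 8.70 in tumors, and it was not called (limma, adjusted p = 0.0757). The 7 matched plasma cell markers summed to 991.5 to 1303 CPM in those FF chow tumors and to 325 to 553 in FF chow non-tumor liver. Among them, Sdc1 was at 143.8, 626.5 and 218.3 CPM in the tumors and 181.8, 357.9 and 183.4 in non-tumor liver. Jchain was at 582, 158.7 and 795.7 CPM against 17.8, 14.3 and 9.42. The part of these markers in the Derl3 values was not tested.

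Among the sensors, Eif2ak3 (PERK) rose in all 4 combinations. Non-tumor liver had 23.0, 17.8 and 24.8 CPM (FF chow), 23.7, 34.2 and 22.8 (dHEP chow), 29.1, 27.5, 27.7 and 23.2 (FF alcohol), and 16.6, 15.2, 19.4 and 21.5 (dHEP alcohol). Tumors had 31.7, 32.0 and 33.8, then 47.3, 41.2 and 46.6, then 55.6, 41.5, 35.5 and 41.6, and 26.3, 33.3, 34.1 and 32.1 CPM in the same order. Tumor and non-tumor values did not overlap in any combination, and the log2 differences were 0.56 ± 0.17, 0.74 ± 0.17, 0.66 ± 0.15 and 0.77 ± 0.15 (limma, largest adjusted p = 0.0144). Within a single combination, 13.8% to 30.7% of all tested genes were separated in this direction. With the block the dHEP chow value was not called (limma, adjusted p = 0.0672). Ern1 (IRE1) rose in FF mice on alcohol (0.75 ± 0.26), from 122, 111, 80.3 and 88.2 to 234, 163, 144 and 143 CPM, and in dHEP mice on chow (1.26 ± 0.29), where tumors had 259.9, 138 and 351 CPM and non-tumor liver 84.7, 99.3 and 107. Xbp1 rose in FF mice on chow (0.86 ± 0.29), from 192, 163 and 236 to 355, 331 and 382 CPM, and in dHEP mice on alcohol (0.72 ± 0.25), where the dHEP-549 and dHEP-550 tumors (197 and 206 CPM) lay near the non-tumor values of 168.3, 157.7, 156 and 200.3 and the other tumors at 379 and 397. With the block this Xbp1 call was lost (limma, adjusted p = 0.1), and that in FF mice on alcohol was gained (0.0478), where non-tumor liver had 184, 252, 194 and 449 CPM and tumors 354, 433, 415 and 389.6. Atf6 was called in no combination, with 129 to 164.7 CPM in non-tumor liver and 104 to 349 in tumors.

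Of the PERK/ATF4 genes, Atf4 rose in all 4 combinations by a log2 difference of 0.63 ± 0.18 (FF alcohol), 0.59 ± 0.21 (FF chow), 0.57 ± 0.18 (dHEP alcohol) and 0.83 ± 0.21 (dHEP chow; limma, adjusted p from 0.00522 to 0.0353). It was at 64.3, 98.1 and 62.3 CPM in FF chow non-tumor liver, 85.3, 74.4 and 68.0 in dHEP chow, 75.4, 58.7, 75.0 and 80.0 in FF alcohol, and 56.6, 64.0, 72.8 and 69.2 in dHEP alcohol. Tumors had 95.6, 162 and 88.3, then 140.2, 108 and 161, then 108, 106, 106 and 128, and 85.0, 127, 84.5 and 98.8 CPM in the same order. The 2 tissues overlapped in FF mice on chow and in no other combination, and with the block the dHEP alcohol call was lost (limma, adjusted p = 0.0583).

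Trib3, a pseudokinase and a gene that ATF4 and CHOP act on, had the largest differences of the list. Non-tumor liver had 8.88, 4.35 and 5.51 CPM (FF chow), 5.44, 5.85 and 9.70 (dHEP chow), 6.01, 5.07, 16.3 and 2.24 (FF alcohol), and 5.46, 4.22, 3.19 and 6.45 (dHEP alcohol). Tumors had 44.7, 28.6 and 31.7, then 70.5, 34.2 and 165.9, then 71.4, 63.8, 74.9 and 18.4, and 39.1, 21.5, 3.65 and 9.91 CPM in the same order. Tumors stood apart from non-tumor liver in all combinations but dHEP on alcohol, where the dHEP-549 tumor lay within the non-tumor range. The log2 difference was 2.88 ± 0.57 (limma, adjusted p = 0.000664) in FF mice on alcohol, 2.33 ± 0.65 (0.00932) in FF mice on chow and 3.27 ± 0.65 (0.000769) in dHEP mice on chow, and it was 1.36 ± 0.57 (0.0916) in dHEP mice on alcohol. That last value changed with single tumors: it was 0.88 without dHEP-518 (limma, adjusted p = 0.304), 1.91 without dHEP-549 (0.0145) and 2.40 without both dHEP-549 and dHEP-550 (0.00618).

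Ddit3 (CHOP) rose in FF mice on alcohol, from 5.45, 5.74, 9.01 and 9.16 to 21.1, 17.5, 26.6 and 25.1 CPM (1.52 ± 0.49; limma, adjusted p = 0.0254), and in dHEP mice on chow, from 5.38, 5.01 and 6.38 to 17.0, 11.8 and 162 (2.35 ± 0.56; 0.00342). The FF alcohol call was lost in 4 of the 8 fits that left out 1 library: non-tumor FF-503 or FF-523, or the FF-581 or FF-595 tumor (1.40 to 1.46; limma, adjusted p = 0.0713, 0.0603, 0.0619 and 0.0556). It was also lost without non-tumor FF-581 and FF-523 (1.53; 0.089). Without the dHEP-165 tumor the dHEP chow value was 1.21 (limma, adjusted p = 0.0136). In FF mice on chow it was at 3.40, 7.11 and 5.73 against 11.8, 18.6 and 11.2 CPM, and in dHEP mice on alcohol at 3.52, 6.06, 6.37 and 5.32 against 9.51, 27.1, 9.14 and 10.9. Tumor values lay above non-tumor values in these combinations too, but neither difference was called (1.22 and 1.15; limma, adjusted p = 0.104 and 0.0997); with the animal block the dHEP alcohol one was (adjusted p = 0.0364). Chac1 stood on the other side, with differences of -0.56 (FF alcohol), -0.68 (FF chow), -1.26 (dHEP alcohol) and -0.76 (dHEP chow), none of them called. In dHEP mice on alcohol it was at 6.65, 5.09, 5.64 and 10.4 CPM in non-tumor liver and at 1.49, 10.8, 1.49 and 0.466 in tumors; only dHEP-520 lay above the non-tumor minimum. Without that tumor the difference was called (-1.88; limma, adjusted p = 0.00185), whereas it was -0.88 without dHEP-550 (0.207) and -0.51 without dHEP-549 and dHEP-550 (0.534). Ppp1r15a was called in no combination. Thus 3, 2, 1 and 3 of the 5 PERK/ATF4 genes rose (FF alcohol, FF chow, dHEP alcohol, dHEP chow), beside 8, 2, 5 and 5 of the 15 chaperones and 13.9%, 21.2%, 12.9% and 17.2% of all tested genes. With a list of 5, shares move by large steps. Without non-tumor FF-581 and FF-523 the FF alcohol count was 1 (Trib3), and without the tumors dHEP-549 and dHEP-550 the dHEP alcohol count was 2 (Atf4 and Trib3). Without the tumors dHEP-155 and dHEP-520, Atf4, Trib3 and Ddit3 were not called in dHEP mice on alcohol (limma, adjusted p = 0.109, 0.21 and 0.262). Chac1 was called lower there (-1.88, limma, adjusted p = 0.000229). In dHEP mice on chow, Ddit3 and Trib3 were still called higher without this pair (limma, adjusted p = 0.00182 and 0.0036). With the animal block, Ddit3 was called in dHEP mice on alcohol, and Atf4, Ddit3 and Trib3 in FF mice on alcohol and dHEP mice on chow. Beside them, no chaperone was called in dHEP mice on alcohol, and Pdia6 and Dnajb9 were in dHEP mice on chow. The median log2 difference was 0.63, 0.59, 0.57 and 0.83 for the PERK/ATF4 genes and 0.59, 0.37, 0.51 and 0.42 for the chaperones.

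**Figure D1:**
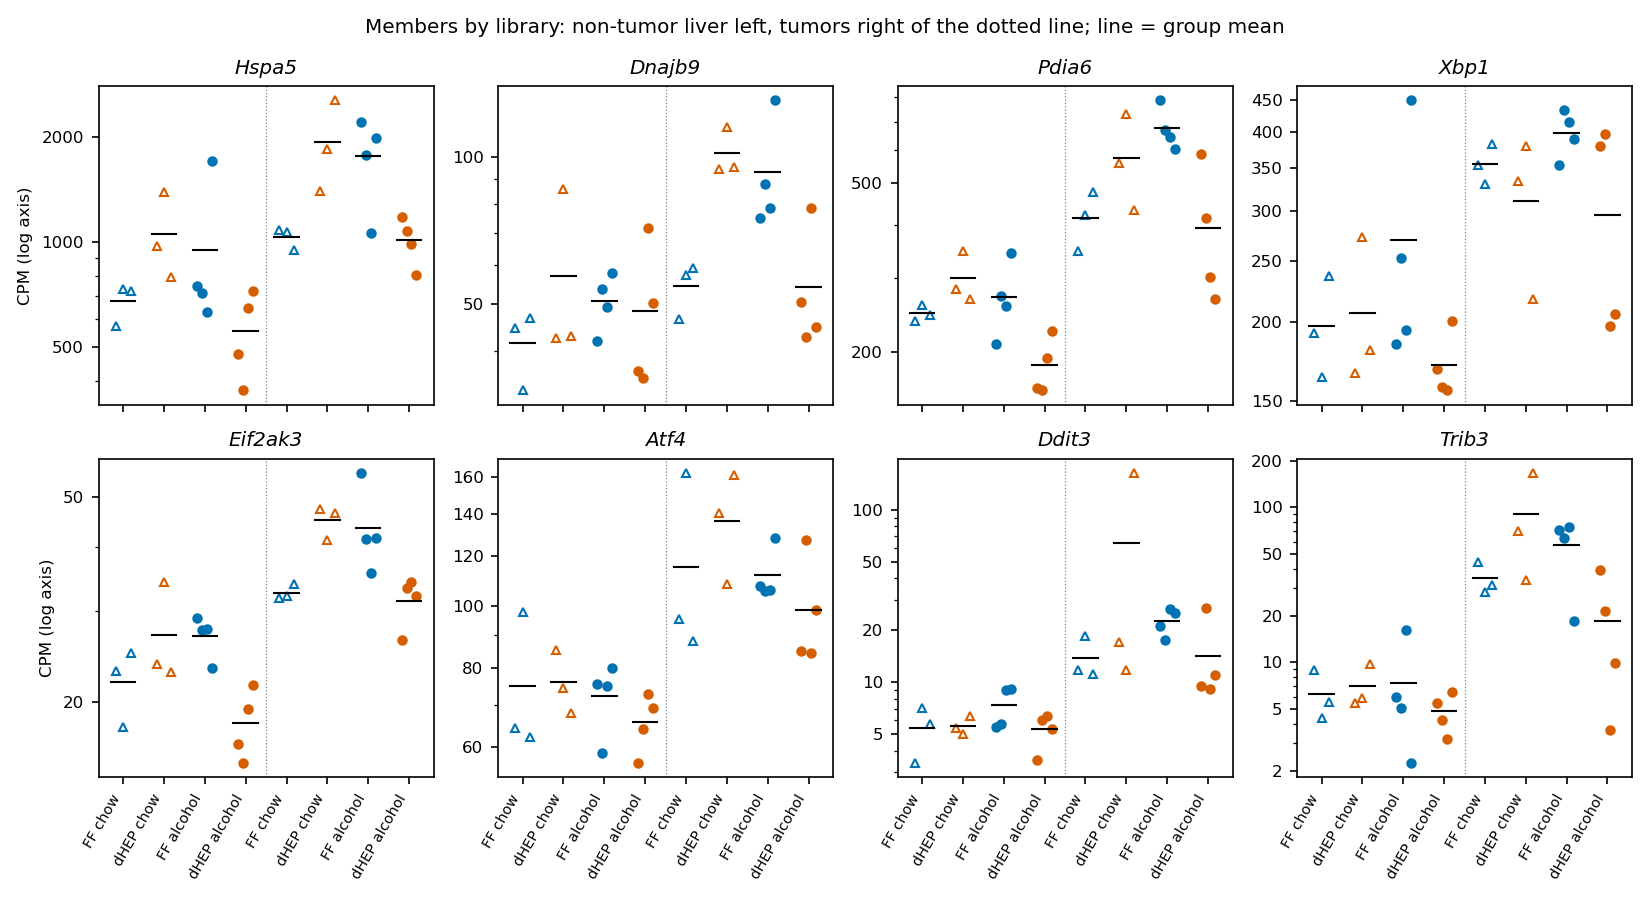
CPM (log axis) of 8 of the genes in every library, by group, with non-tumor groups left of the dotted line; blue is FF, orange dHEP, filled circles alcohol, open triangles chow, and each line is a group mean. Eif2ak3 and Atf4 were higher in tumors of each genotype and diet, Trib3 spread from 3.65 to 165.9 CPM among tumors, and 1 tumor (dHEP-165) held 162 CPM of Ddit3.

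The summed CPM of 10 hepatocyte markers was also higher in tumors, at 142500 to 262200 against 71070 to 126100 in non-tumor liver; other cell markers differed as well. The sum of 10 monocyte and macrophage markers ranged from 78.2 to 3387 CPM over tumors and from 78.0 to 261 over non-tumor libraries. For 10 Kupffer cell markers the ranges were 108.3 to 571.5 and 273.5 to 791.4, and for 7 bile duct markers 7.52 to 3171 and 22.8 to 104. In FF mice on alcohol these ranges did not overlap: 300.2 to 532.7 against 124.8 to 261.2 (macrophages), 198.5 to 399.7 against 512.6 to 791.4 (Kupffer cells), and 160.6 to 395.4 against 24.8 to 104 (bile duct). The macrophage and bile duct lists share the gene Spp1, so their sums are not independent. The part of these markers in the tissue differences was not tested. Whether the tissue difference itself differed was tested by interaction terms. No listed gene was called for genotype by tissue on alcohol or on chow, or for diet by tissue in FF or dHEP mice (limma, adjusted p under 0.05; 0.0% of all tested genes in each). At an unadjusted p under 0.05 the counts were 0, 1 (Syvn1, 1.14), 0 and 1 (Trib3, -1.91). The differences in the number of called genes between combinations were thus not matched by called interactions.

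The genotype comparisons set livers labelled dHEP against livers labelled FF on each diet. In tumors of mice on alcohol, all 31 genes had lower fitted levels in dHEP than in FF mice, with a median log2 difference of -0.50; over all 13205 tested genes 52.9% were lower and the median was -0.02. None of the 31 was called (limma, adjusted p under 0.05; 0.0% of all genes). At an unadjusted p under 0.05, 17 were lower and none higher, against 3.63% and 2.67% of all genes. For 9 genes the 4 dHEP tumors lay below all 4 FF tumors (2.07% of all genes): Calr, Pdia3, Pdia6, P4hb, Dnajb11, Sdf2l1, Sel1l, Derl1 and Eif2ak3. Without the tumors dHEP-549 and dHEP-550, 29 of the 31 differences were below 0, the median was -0.39, 6 had an unadjusted p under 0.05 and 12 did not overlap (5.3% of all genes). Without dHEP-155 and dHEP-520, 30 were below 0, the median was -0.61, 20 had an unadjusted p under 0.05 and 15 did not overlap (9.95%). The count of 17 was 9 without FF-503, and 11 without FF-523, dHEP-549 or dHEP-550 singly. Here and below, the shares of all genes at an unadjusted limma p are those of the fits with all libraries. Such counts from fits without some libraries have no share beside them, so a change in them may also be a change over all genes. The 10 hepatocyte markers summed to 262200 CPM in the dHEP-518 tumor, 142500 to 184600 in the other 3 dHEP tumors and 200200 to 242200 in the FF tumors. The macrophage markers summed to 1029 CPM in dHEP-520, 78.2 to 189.1 in the other 3 and 300.2 to 532.7 in the FF tumors. The part of either in these differences was not tested.

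By role, the fitted alcohol tumor values of dHEP mice were below those of FF mice by a median log2 difference of -0.58 over the 15 chaperones. The mean CPM of dHEP tumors was 57.6% of that of FF tumors for Hspa5, 58.1% for Pdia6, 58.2% for Dnajb9, 57.6% for Manf and 46.2% for Sdf2l1. The Hspa5 difference was -0.76 ± 0.25 (limma, unadjusted p = 0.00963, adjusted p = 0.687), and that of Dnajb9 was -0.78 ± 0.21 (unadjusted 0.00274, adjusted 0.645). Hspa5 overlapped through FF-581 (1060 CPM), and Dnajb9 through FF-503 (75.0) and dHEP-549 (78.5). On the PERK/ATF4 side Trib3 was at 32.5% of the FF mean (-1.81 ± 0.64; limma, adjusted p = 0.729), whereas Atf4 was at 88.3%, Ppp1r15a at 83.5% and Ddit3 at 62.7%. Without dHEP-549 and dHEP-550 the Trib3 difference was -0.77.

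In tumors of mice on chow the signs were mostly opposite. There 25 of the 31 genes had higher fitted levels in dHEP than in FF tumors (47.9% of all genes), with a median of 0.32 against -0.01. None was called (limma; 0.0% of all genes), and 5 were higher at an unadjusted p under 0.05, against 1.01% of all genes: Hspa5 (0.86 ± 0.29), Dnajb9 (0.89 ± 0.25), Pdia3 (0.46), Syvn1 (0.84) and Eif2ak3 (0.45). The adjusted p of each was 1 in limma. For these 5 and for Hyou1 and Manf, the 3 dHEP tumors lay above the 3 FF tumors (2.16% of all genes). Hyou1 was at 437, 456 and 402 against 359, 279 and 296 CPM. Trib3 was at 70.5, 34.2 and 165.9 against 44.7, 28.6 and 31.7, with overlap. The dHEP-155 tumor held 3387 CPM in the sum of 10 monocyte and macrophage markers, against 170 and 442 in the other dHEP chow tumors and 230.1 to 630 in FF chow tumors. Its 7 bile duct markers summed to 3171 CPM, against 350.6 and 121.9 in the other dHEP chow tumors and 110.5 to 147.7 in FF chow tumors. Spp1 is on both of these lists, so the sums are not independent. The part of these cells in the values was not tested. Without that tumor the count of 5 was 3, while without dHEP-164 it was 10.

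The diet comparisons use the same tumors, so they are not separate evidence. FF tumors on alcohol had higher fitted levels than FF tumors on chow for 28 of 31 genes (34.1% of all genes; median 0.34 against -0.10), with 0 called (limma; 0.0%) and 6 higher at an unadjusted p under 0.05 (0.833%): Hspa5, Pdia6, Dnajb9, Manf, Sel1l and Eif2ak3. Pdia6, Dnajb9 and Eif2ak3 did not overlap between these diets (1.76%). The count of 6 was 3 without FF-168 or FF-503 and 12 without FF-581. dHEP tumors on alcohol had lower fitted levels than dHEP tumors on chow for 30 of 31 genes (64.3% of all genes; median -0.46 against -0.11). Again 0 were called (limma; 0.00757% of all genes), and 14 were lower at an unadjusted p under 0.05 (7.55%), with 12 genes not overlapping (3.42%). Dnajb9 had the smallest p of them (-0.93 ± 0.23; limma, unadjusted p = 0.00124, adjusted p = 0.198), and Trib3 the largest difference (-2.36 ± 0.69; adjusted p = 0.255). Without dHEP-549 and dHEP-550 the 14 became 7, with 14 genes not overlapping (9.64% of all genes), and without dHEP-550 alone 9. Without dHEP-155 and dHEP-520 it was 13, with 19 genes not overlapping (10.8%).

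The difference between these genotype effects was tested as the genotype by diet interaction. In tumors all 31 terms were below 0 (49.5% of all genes), with a median of -0.80 against 0.00. None was called (limma; 0.0% of all genes), and 15 were below 0 at an unadjusted p under 0.05, against 2.6% of all genes. Dnajb9 had -1.67 ± 0.32 (limma, unadjusted p = 0.00017, adjusted p = 0.642), Hspa5 -1.62 ± 0.38 (0.000938 and 0.642), Eif2ak3 -0.90 ± 0.22 (0.00133 and 0.647) and Trib3 -2.89. The 31 terms kept their sign with median-of-ratios scaling, and 29 did so with sample quality weights and without dHEP-549 and dHEP-550, where the count at an unadjusted p was 10; without dHEP-155 and dHEP-520, 30 terms were below 0 and that count was 16.

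**Figure D2:**
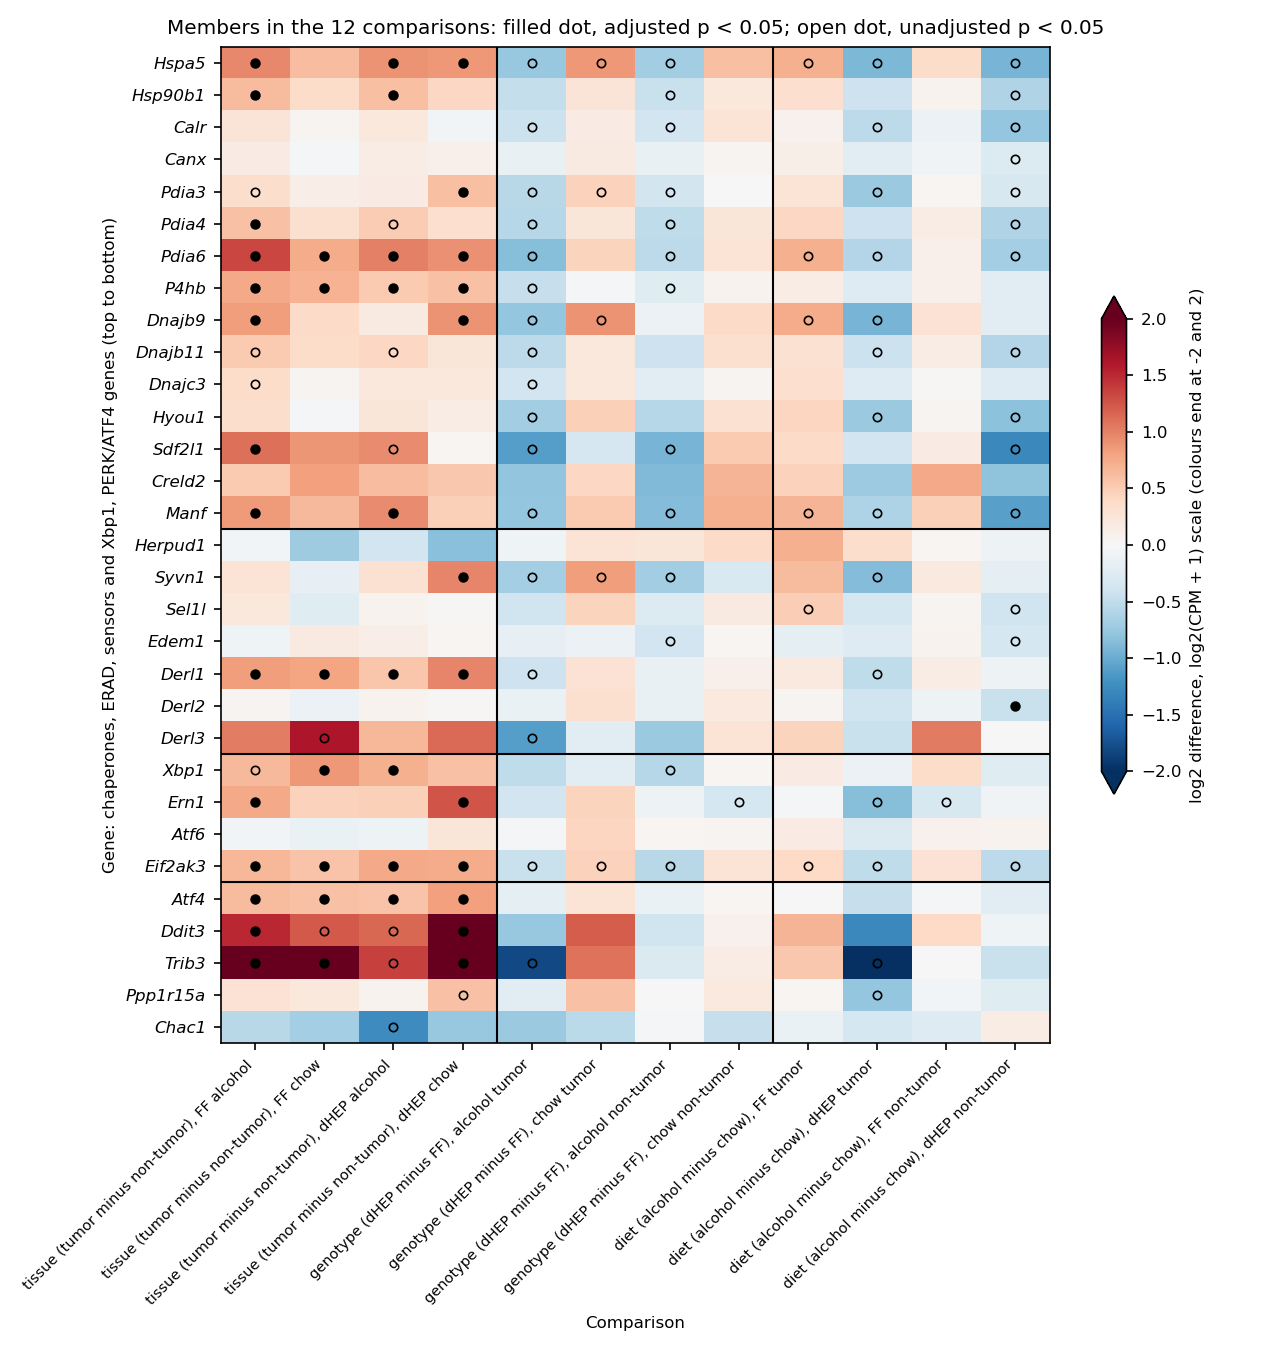
Log2 difference of each of the 31 genes (rows, by role) in 12 comparisons (columns); the colour scale ends at -2 and 2, a filled dot marks a limma adjusted p under 0.05 and an open dot an unadjusted p under 0.05. Filled dots lie in the 4 tissue columns and once outside them (Derl2, dHEP non-tumor liver, alcohol against chow), and the column of genotype in alcohol tumors is below 0 in all 31 rows.

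Non-tumor liver gave smaller differences. On alcohol, 28 of 31 genes had lower fitted levels in dHEP than in FF mice (62.7% of all genes; median -0.38 against -0.05), 0 were called (limma; 0.0%) and 13 were lower at an unadjusted p under 0.05 (6.07%). Eif2ak3 was the only gene with all 4 dHEP libraries below all 4 FF libraries (2.75%), at 16.6, 15.2, 19.4 and 21.5 against 29.1, 27.5, 27.7 and 23.2 CPM (-0.55 ± 0.15; limma, unadjusted p = 0.00281, adjusted p = 0.367). The count of 13 was 7 without the library FF-595, 5 without dHEP-520 and 16 without FF-523 and FF-581. On chow, 27 of 31 were higher in dHEP mice (56.0%; median 0.19 against 0.03), with 0 called (limma; 0.0%) and only Ern1 below an unadjusted p of 0.05, on the lower side (-0.35; 1.99% of all genes). Hspa5, Calr, Pdia6, Dnajb11, Manf and Derl2 did not overlap between the genotypes there and were higher in dHEP mice (6.85%), and Ern1 did not overlap and was lower (4.64%).

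Derl2, a relative of Derl1, was the only listed gene called in a diet or genotype comparison. In dHEP non-tumor liver it was at 69.2, 71.0, 70.9 and 76.8 CPM on alcohol and at 93.3, 107 and 94.1 on chow, with no overlap (-0.44 ± 0.09; limma, adjusted p = 0.0491). The share of all genes called lower in this comparison was 0.466%. The Derl2 call was lost in each of the 7 fits that left out 1 library, and also without chow non-tumor FF-158 and dHEP-155, a pair left out after seeing the data (where the chow tissue counts were 8 for dHEP and 6 for FF). In that comparison 28 of 31 genes had lower fitted levels on alcohol (62.8%; median -0.31 against -0.07), 15 at an unadjusted p under 0.05 (9.37%), and 15 did not overlap (12.9%). Calr had -0.78 ± 0.17 (limma, adjusted p = 0.0583), with 427, 457, 522 and 655 CPM on alcohol and 847, 946 and 827 on chow. Pdia6 had -0.68 ± 0.16 (limma, adjusted p = 0.0679) and Sdf2l1 -1.29 ± 0.35 (0.116). Without the chow library dHEP-164, which held the highest chow values of Hspa5 (1387 CPM) and Manf (138), the 15 became 8. In FF mice, 23 of 31 were above 0 on alcohol (51.1%; median 0.09 against 0.01), 0 were called (limma; 0.577% of all genes in either direction), and Ern1 alone had an unadjusted p under 0.05 (-0.32; 6.47% of all genes lower).

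The genotype by diet interaction in non-tumor liver was below 0 for 29 of 31 genes (62.3%; median -0.45 against -0.08), with 0 called (limma; 0.0%) and 11 at an unadjusted p under 0.05 (4.99%). Hspa5 had -1.30 ± 0.45 (limma, unadjusted p = 0.0118, adjusted p = 0.724), Eif2ak3 -0.82 ± 0.23 (0.00315 and 0.605) and Manf -1.57 ± 0.51 (0.00816 and 0.724). None of the 5 PERK/ATF4 genes was among the 11, and without the chow library dHEP-164 there were 7. The medians of genes with and without an ERSE lay within each other's range. In alcohol tumors the median genotype difference was -0.67 over the 9 genes with the element (range -1.10 to -0.16) and -0.48 over the 18 without it (-1.81 to -0.08). In FF alcohol mice the median tissue difference was 0.52 and 0.61.

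To compare the sides within a library, the log2 values of the 15 chaperones and of the 5 PERK/ATF4 genes were each averaged after subtracting the gene's mean over the 28 libraries. The chaperone mean was lowest in dHEP alcohol non-tumor liver (-0.59 ± 0.26, SD, n = 4) and highest in FF alcohol tumors (0.53 ± 0.29, n = 4) and dHEP chow tumors (0.46 ± 0.14, n = 3); in dHEP alcohol tumors it was -0.09 ± 0.18 (n = 4). The PERK/ATF4 mean lay between -0.36 and -0.35 in 3 non-tumor groups and at -0.52 ± 0.14 in the dHEP alcohol one. In tumors it was 0.90 ± 0.76 (dHEP chow, n = 3), 0.60 ± 0.23 (FF alcohol, n = 4), 0.38 ± 0.10 (FF chow, n = 3) and -0.15 ± 0.62 (dHEP alcohol, n = 4). The chaperone mean minus the PERK/ATF4 mean thus had group means from -0.44 ± 0.90 (dHEP chow tumors) to 0.39 ± 0.30 (dHEP chow non-tumor liver). The former rested on single tumors, being -0.01 without dHEP-165 and -0.91 without dHEP-164, and that of FF alcohol non-tumor liver went from 0.24 to 0.00 without FF-595. Single libraries reached further: the dHEP-165 tumor was at -1.31, the dHEP-520 tumor at -0.65, the dHEP-549 tumor at 0.62 and the FF-595 non-tumor library at 0.97.

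**Figure D3:**
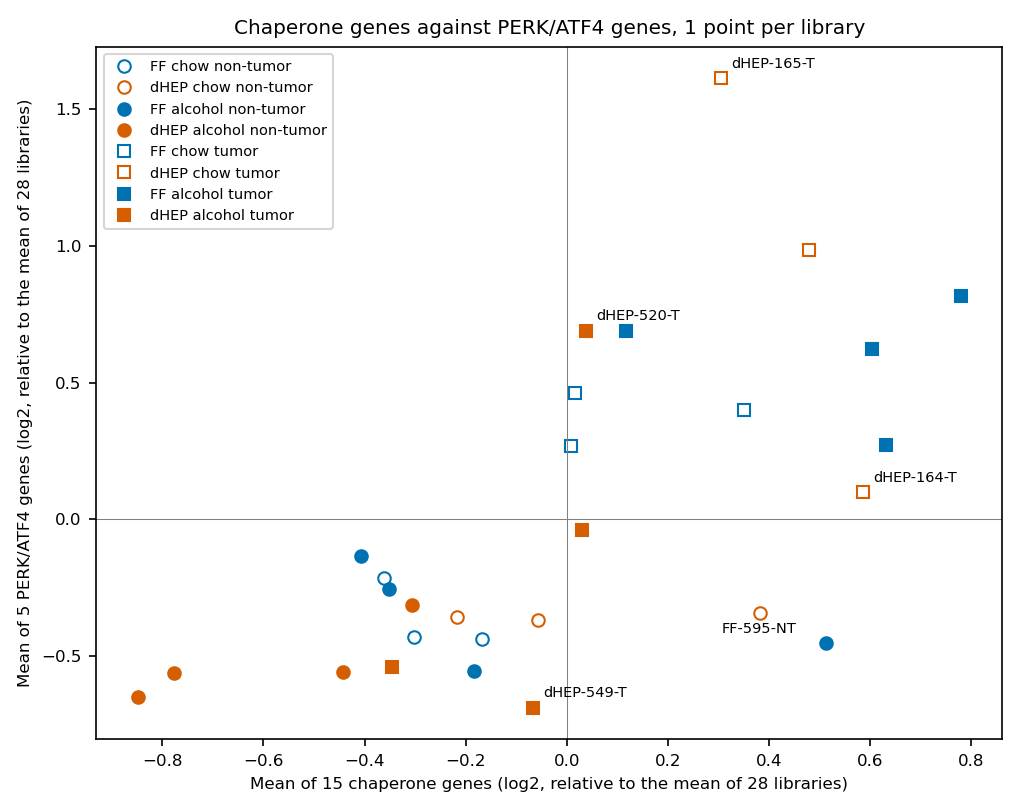
Mean log2 level of the 15 chaperones (x axis) against that of the 5 PERK/ATF4 genes (y axis), each relative to its mean over 28 libraries; 1 point is 1 library, circles are non-tumor and squares tumor, filled on alcohol and open on chow. Non-tumor libraries span the x axis from -0.85 to 0.51 at PERK/ATF4 values below 0, and the tumors differ widely on the y axis.

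Covariation with Hspa5 within groups was described for each listed gene, and no gene was called in non-tumor liver. After the group means were removed, Manf had r = 0.98 with Hspa5 over the 14 non-tumor libraries (Spearman rho = 0.97; exact permutation within groups, p = 0.000145 and 0.000241, adjusted p = 0.315), Hyou1 r = 0.97 (rho = 0.93), Creld2 r = 0.94 (rho = 0.87) and Hsp90b1 r = 0.93 (rho = 0.90). Of the 14 other chaperones, 11 had an r of at least 0.7, as had 1 of 7 degradation genes, 1 of 4 sensor genes (Xbp1) and none of the 5 PERK/ATF4 genes, against 1.99% of the 12650 other tested genes. No gene of the table passed the adjusted threshold; by unadjusted exact permutation p under 0.05, 15 of 30 listed genes and 1841 of 12650 tested genes did. Without FF-595 and dHEP-164, the libraries farthest from the median of Hspa5, these counts were 6 and 416, and 6 chaperones in place of 11 had an r of at least 0.7. The median r by role was 0.85 (chaperones), 0.38 (degradation), 0.32 (sensors) and 0.27 (PERK/ATF4). Without those libraries the chaperone median was 0.65; Manf was at 0.98, Hyou1 at 0.90, Creld2 at 0.82 and Hsp90b1 at 0.77, whereas Xbp1 went from 0.79 to 0.24 and the negative value of Trib3 from -0.64 to -0.30. Pdia4 was then at 0.48, Dnajc3 at 0.56, Pdia6 and Calr at 0.65 and Canx at 0.62. Derl3 went from 0.80 to 0.17. Among the relations that fell under 0.7, those of Derl3 and Xbp1 thus rested mostly on these 2 libraries, and the others kept an r of 0.48 to 0.65.

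In tumors the median r of the chaperones was lower over all 14 libraries of each tissue. The median r was 0.48 for chaperones, 0.34 for degradation genes, 0.39 for sensors and 0.20 for PERK/ATF4 genes, and 1 gene, Dnajc3 (a co-chaperone that inhibits PERK), had an r of at least 0.7 (r = 0.84, rho = 0.88; exact permutation p = 0.000675, adjusted p = 1.0), against 0.28% of 13204 genes. Without FF-503 and dHEP-165 its r was 0.75, while Manf went from 0.67 to 0.85 and Creld2 from 0.47 to 0.87. The chaperone median was then 0.58, with 5 chaperones at an r of at least 0.7. In non-tumor liver without its 2 farthest libraries these were 0.65 and 6, so most of the gap between the tissues rests on the libraries left out. The difference in r between the tissues was not tested.

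**Figure D4:**
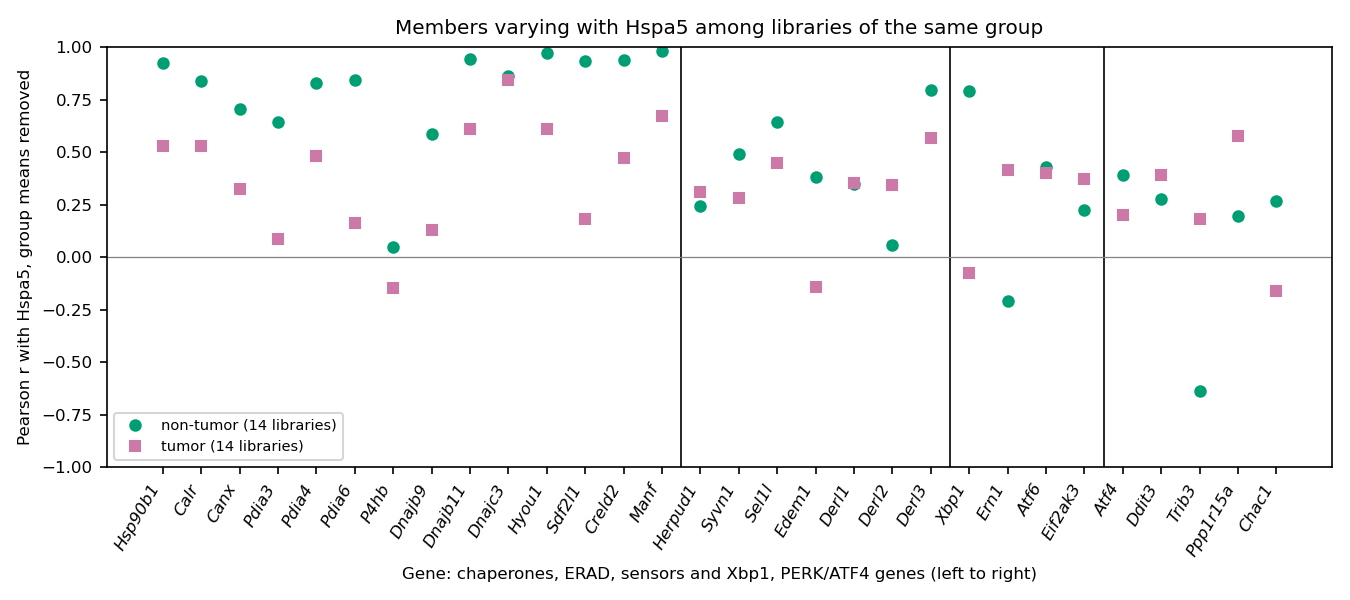
Pearson r of each gene with Hspa5 after removal of group means, over 14 non-tumor libraries (green circles) and 14 tumors (pink squares), with genes grouped by role. Of the 14 chaperones, 11 lie at 0.7 or above in non-tumor liver and 1 in tumors (6 and 5 without the 2 libraries farthest from the median of Hspa5 in each tissue), and the PERK/ATF4 genes lie at 0.39 or below in non-tumor liver.

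The spread among libraries of a group was carried by a few of them. The FF alcohol non-tumor library FF-595 had the highest level of the 14 non-tumor libraries for 14 of the 31 genes: 10 of 15 chaperones, Edem1, Derl3, Xbp1 and Ddit3. It held 199 CPM of Creld2, against 33.6, 39.2 and 32.8 in the rest of its group, 153 of Manf against 65.5, 67.5 and 55.4, and 449 of Xbp1 against 184, 252 and 194. Trib3 was at 2.24 CPM there, the lowest of the 14, so the chaperones and this PERK/ATF4 gene stood at opposite ends in the same library. The 7 matched plasma cell markers summed to 369 CPM in it and to 355.8 to 405 over its group. Sdc1 (177.8 CPM) and Txndc5 (189.6) made up nearly all of its sum. Jchain was at 0.576 CPM in FF-595, against 9.43, 8.01 and 10.1 in the rest of its group, and Mzb1 was at 0.

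The dHEP chow tumor dHEP-165 showed another pattern. It had the highest level of the 14 tumors for 8 genes: Hspa5, Derl1, Derl2, Ern1, Atf6, Ddit3, Trib3 and Ppp1r15a. Ddit3 was at 162 CPM, against 9.14 to 27.1 in the other 13 tumors, Atf6 at 349 against 104 to 181, and Ppp1r15a at 38.8 against 11.5 to 25.2. Yet Sdf2l1 (15.3 CPM, others 12.8 to 73.2), Xbp1 (218, others 197 to 433) and Chac1 (1.35, others 0.466 to 10.8) lay near the low end of the tumors. In the non-tumor library of the same animal number Ddit3 was at 6.38 and Atf6 at 143 CPM, within the range of non-tumor liver.

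Other ER and stress genes, taken from fixed lists, were compared in the same 4 tissue contrasts (FF alcohol, FF chow, dHEP alcohol, dHEP chow). They are read against the 13.9%, 21.2%, 12.9% and 17.2% of all tested genes called higher and the 10.6%, 9.55%, 7.54% and 10.7% called lower. Of 24 translocon, signal peptidase and oligosaccharyltransferase genes, which bring proteins into the ER and glycosylate them, 20, 19, 18 and 21 rose and none fell, with medians of 0.74, 0.68, 0.64 and 0.69. Ddost, a transferase subunit, was at 173 ± 21.5 CPM in FF alcohol tumors and 87.3 ± 5.81 in non-tumor liver (SD, n = 4 each; log2 difference 0.97 ± 0.11). Of 30 other ER folding genes 11, 11, 9 and 10 rose and 0, 2, 0 and 1 fell; Fkbp11, an ER prolyl isomerase, was at 56.7 ± 6.69 against 8.71 ± 3.36 CPM in FF alcohol mice (2.63 ± 0.27; limma, adjusted p = 1.1e-06). Of 29 other integrated stress response genes, 28 passed the filter on low values and were tested; of these 7, 10, 7 and 14 rose and 3, 2, 1 and 2 fell, with the serine synthesis gene Psat1 higher by 3.80, 5.10, 3.77 and 5.04. Of 10 other ER stress transducers 9 were tested, and 3, 2, 1 and 3 rose and 0, 1, 0 and 1 fell (higher: 33.3%, 22.2%, 11.1% and 33.3%), among them Creb3l2 by 1.44 in FF alcohol mice; on FF chow and dHEP alcohol these shares lie near those of all genes. Of 15 cytosolic heat shock genes 1, 0, 0 and 2 rose, below the shares of all genes. On diet in dHEP non-tumor liver, Rpn1 (-0.75 ± 0.15), Selenok (-0.51 ± 0.09) and Sil1 (-0.37 ± 0.08) fell in the same comparison as Derl2 (limma, adjusted p = 0.0441, 0.0278 and 0.0499).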

How the data were processed

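RNA from 28 mouse liver and liver tumor samples was measured. The values are CPM as deposited by the authors, and each library sums to 1000000; STAR 2.5.1a, RSEM 1.3.0 and GRCm38 are named per the submitters' processing notes, with no role given. The labels name polyA RNA and a stranded total RNA kit. Of the values of up to 20 estimated reads, 85.1% to 86.8% were whole within 0.1 read, so no count model was used. Ensembl IDs were matched to symbols for 21653 of 22187 genes. Depth was about 9.57 M to 17.82 M reads.

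A gene was tested if at least 3 of the fitted libraries held 1 CPM of it. The fit was made with limma 3.58.1 (R 4.3.3) with a mean-variance trend on log2(CPM + 1), which understates the change of low genes; genotype and diet were fitted within the 14 libraries of a tissue, and tissue contrasts over all 28. p-values were adjusted by Benjamini-Hochberg over all tested genes. The fits were tested on simulated data. For genotype in alcohol tumors, 4.5% of 1.5-fold and 44.8% of 2-fold changes were called. For diet in dHEP non-tumor liver these shares were 22.4% and 77.6%, and for tissue in FF alcohol mice 25.4% and 80.6%. Most 1.5-fold changes were thus not called. Tumor and non-tumor libraries with the same animal number are taken as the same animal; their deviations correlated at 0.16 to 0.36 (FF alcohol), -0.11 to 0.25 (dHEP alcohol) and 0.07 to 0.19 (dHEP chow). All 31 genes could be named, with values per library for called genes (Derl1 as a range) and for Hspa5, Dnajb9, Hyou1, Xbp1, Ddit3, Trib3, Atf4 and Chac1; of each other list, up to 3 called genes of smallest adjusted p per comparison. Covariation with Hspa5 used 20736 orders within groups, which can give a p no smaller than 4.82e-05 (scipy 1.17.1). The alternatives were a pseudocount of 0.5, no filter or one at 5 CPM on average, scaling by median of ratios, sample quality weights, no trend, the compared groups only, the animal block and leaving out each library; leaving out pairs of doubted libraries was chosen after seeing the data. The animal block was fitted on the compared groups only. The genes and lists were chosen with earlier results of these data known.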

Additional observations from a re-analysis of the deposited data

Results flagged for a closer look

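In groups of 4, 11 of 144 sets of values had a library whose gap to its nearest neighbour exceeded Dixon's 95% critical value of 0.829 of the group's range. Chance gives about 1 in 20 for a single set. The sets share libraries and genes that vary together, so they are not independent and the count of 11 is not a test. In 6 of the 11 sets the library was the non-tumor FF-595, the highest of its group for Hspa5 (1708 CPM), Dnajb11 (152), Sdf2l1 (46.1), Creld2 (199), Manf (153) and Derl3 (28.6). In dHEP alcohol non-tumor liver, P4hb was highest in dHEP-550 (1447 CPM) and Herpud1 in dHEP-549 (761). In alcohol tumors, Atf4 was highest in FF-595 (128 CPM), and Ddit3 (27.1) and Chac1 (10.8) in dHEP-520.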

How the results depend on the processing

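No called value reversed its direction under any alternative run. The animal block (the replicate block, possible where tumor and non-tumor libraries share a number) left 3 called genes in dHEP mice on alcohol in place of 9, and changed no call in the interactions. The block fits held the compared groups only, so they differ from the main fits in the libraries used as well. In dHEP mice on chow the count was 8 with the block and 6 with the same libraries without it. For FF mice on chow between tissues, and for the genotype and diet comparisons, no paired analysis was possible because the animal numbers differ between the groups compared. Counts that moved by more than 1.5 times were as follows. With median-of-ratios scaling, tissue calls were 3 in FF mice on chow and 5 in dHEP mice on alcohol, the Derl2 count was 0, and unadjusted counts were 10 (diet, FF tumors), 9 (diet, dHEP tumors), 6 (genotype, alcohol non-tumor) and 6 (interaction, non-tumor). With sample quality weights, tissue calls in dHEP mice on chow were 7, diet calls in dHEP non-tumor liver 10 in place of 1, and the genotype count in alcohol non-tumor liver 8. With the compared groups only, tissue calls were 12 (FF chow) and 6 (dHEP chow) and diet calls in dHEP non-tumor liver 3; a pseudocount of 0.5 and no trend gave 0 for the latter. Without doubted libraries, the counts were 6 (genotype, alcohol tumors), 7 (diet, dHEP tumors), 6 (tissue, FF alcohol) 0 (diet, dHEP non-tumor) and, without the tumors dHEP-155 and dHEP-520, 3 (genotype, chow tumors). The cause was not tested. Leaving out 1 library gave 8 to 19, 4 to 6, 4 to 9 and 8 to 12 tissue calls (FF alcohol, FF chow, dHEP alcohol, dHEP chow) and 0 to 1 diet calls in dHEP non-tumor liver. Unadjusted counts were then 9 to 20 and 3 to 10 (genotype, alcohol and chow tumors), 3 to 12 and 9 to 18 (diet, FF and dHEP tumors), 5 to 15 (genotype, alcohol non-tumor), 8 to 15 (diet, dHEP non-tumor), and 11 to 20 and 7 to 15 (interaction, tumors and non-tumor).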

Other observations

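Stress genes outside the list were read in the dHEP-165 tumor after its values had been seen. Atf3, a stress-induced transcription factor, was at 231 CPM there and at 4.86 to 30.5 in the other 13 tumors. Nupr1 was at 169.8 CPM (others 0.675 to 17.6) and the secreted stress factor Gdf15 at 41.5 (others 3.10 to 19.98). The amino acid synthesis genes that ATF4 also acts on did not stand with them: Asns was at 1.35 CPM (others 3.97 to 159.5) and Phgdh at 2.499 (others 5.13 to 100.4), both the lowest of the 14 tumors, while Psat1 was at 65.0 (others 9.38 to 114). These are values of 1 library, with no test.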
